A study of Mus musculus with 6 samples.

Results

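The heat shock chaperones examined here are 10 genes, chosen by symbol: the transcription factor gene Hsf1, the HSP70 genes Hspa1a, Hspa1b and Hspa8, their partners Hsph1 and Dnajb1, the HSP90 genes Hsp90aa1 and Hsp90ab1, and the mitochondrial chaperonin genes Hspd1 and Hspe1. All 10 symbols were found among the 24346 gene symbols of each deposited table. The study sequenced mRNA of CT26.mMR1, which are mouse CT26 colorectal tumor cells that carry a retrovirally introduced mouse MR1 gene, and of M8, a clone taken from them by limiting dilution after treatment with the mutagen ENU. Both lines therefore overexpress MR1, the molecule that presents metabolites to mucosal-associated invariant T cells, and M8 had been selected for its higher surface MR1 and its stronger activation of a MAIT reporter line. The labels title the samples CT26_cl9 and CT26_cl9_M8, both MR1-overexpressing and the latter a mutant; CT26_cl9 was taken to be CT26.mMR1, and what cl9 stands for is not stated. Each line was represented by 3 RNA samples, and M8 is a single clone, so that effects of the mutagen cannot be told apart from differences between clones. The study calls the samples of a line biological replicates, but the labels do not say whether they came from separate cultures, and the p-values measure only the spread between these samples.

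Heat shock proteins hold unfolded proteins in solution and help them to fold. HSP70 proteins bind short hydrophobic stretches in cycles of ATP hydrolysis, J-domain proteins such as that of Dnajb1 bring the client and start the hydrolysis, and nucleotide exchange factors such as that of Hsph1 release it. HSP90 acts later on near-native clients such as kinases and steroid receptors, and HSP60 with its lid HSP10 forms a folding chamber in the mitochondrial matrix. HSF1 is the transcription factor that is released from these chaperones under protein-folding stress and binds heat shock elements, which are inverted repeats of the unit GAA, in the promoters of many of their genes. Some family members are induced by stress (Hspa1a, Hspa1b, Hsp90aa1), whereas others are made at high levels all the time (Hspa8, Hsp90ab1). Tumor cells are known to depend on these chaperones.

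Promoter windows of 300 bases, most of them before the annotated start, were at hand for 6 of the 10 genes (RefSeq, GRCm38.p6), namely Hspa1a, Hspa1b, Hsph1, Dnajb1, Hspd1 and Hspe1. They were searched on both strands for heat shock elements of 3 units, written TTCNNGAANNTTC or GAANNTTCNNGAA, and for the shorter forms of 2 units, GAANNTTC and TTCNNGAA, which the longer forms contain. The longer form was present in 0.603% of all 32851 windows and the shorter in 15.1%. Counted by gene symbol, with a match in any window of the gene, the shares were 0.662% and 17.0% of 27025 symbols. Among the 6 genes, 3 had the longer form (Hspd1, Hspe1 and Hsph1) and 5 the shorter, and Dnajb1 had neither in its windows. The stretches with matches are shown to place each gene beside its expression values, with capitals marking the matched elements.

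Hspd1 and Hspe1 lie head to head on chromosome 1 and share 1 element of 4 alternating units, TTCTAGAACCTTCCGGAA, at chr1:55088059-55088076. It spans positions -89 to -72 relative to the start of Hspe1. The same 18 base pairs are read in reverse on the Hspd1 strand, at positions -144 to -127 relative to the downstream one of its annotated starts and inside the first exon (5′ UTR) of an Hspd1 transcript that starts further upstream. The stretch chr1:55088053-55088082 is given for each strand.
Hspe1, plus strand: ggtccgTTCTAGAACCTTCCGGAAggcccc
Hspd1, minus strand: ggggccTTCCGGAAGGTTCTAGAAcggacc

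In Hsph1, an element of 2 units lay before the start on which the further upstream of its windows is set, and an element of 3 units after it, at positions 37 to 49 from that start and in the 5′ UTR of annotated transcripts. The annotated gene reaches further upstream, to position 149636498, so both elements lie within its span. The stretches are chr5:149636351-149636380 and chr5:149636288-149636317, both on the minus strand.
Hsph1, before the start used for the window: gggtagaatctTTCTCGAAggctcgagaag
Hsph1, after that start: gagtaaaatgctgcagaTTCTGGAAAGTTC

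The promoters of the near-identical copies Hspa1a and Hspa1b, whose starts are 12918 bases apart on chromosome 17, differed at 4 of 300 positions of their windows. Their last 150 bases before the start, chr17:34972157-34972306 and chr17:34959239-34959388 on the minus strand, show how little separates them.
Hspa1a: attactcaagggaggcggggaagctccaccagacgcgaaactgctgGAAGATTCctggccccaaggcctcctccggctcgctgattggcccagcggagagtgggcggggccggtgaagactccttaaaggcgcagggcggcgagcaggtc
Hspa1b: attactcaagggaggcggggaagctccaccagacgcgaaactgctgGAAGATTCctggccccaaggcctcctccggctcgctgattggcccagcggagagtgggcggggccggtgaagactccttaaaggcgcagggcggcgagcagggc
A match describes letters in these windows and is not evidence that HSF1 was bound there.

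The values are FPKM as the authors deposited them, a unit defined as fragments scaled by transcript length and by the total of mapped fragments. They summed to between 593635 and 630264 in the 6 libraries. Judged from the step sizes of weakly expressed genes, the depth relative to parental replicate 1 was 0.948 and 1.07 in the other parental libraries and 0.772 to 0.875 in M8. The cells are labelled as colon, but among 9 markers of intestinal epithelium only Krt18 and Krt20 reached a mean of 1 FPKM, and Epcam, Cdh1, Krt19 and Cdx2 were listed at 0 in all 6 libraries. All 6 mesenchymal markers reached that level, with a summed level of 2483 to 2915 FPKM in parental cells and 2606 to 2698 FPKM in M8, most of it from Vim. Of the markers that reached 1 FPKM, the lines did not overlap in Fn1, Pdgfra and Krt20, which were lower in each M8 library, and in Cdh2, Col1a1 and Pdgfrb, which were higher. Markers of leukocytes and of endothelium summed to at most 0.567 and 0.0524 FPKM in any library. In such bulk RNA, fewer cells with a transcript and less of it in each cell cannot be told apart.

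At the level of mRNA, both lines were rich in constitutive chaperones and held almost no transcript of the stress-inducible Hspa1 copies. Hsp90aa1, which is also stress-inducible, was at 404 to 454 FPKM in parental cells and at 400 to 408 FPKM in M8. Together the 10 genes made up 0.733% to 0.748% of the summed FPKM in parental cells and 0.678% to 0.686% in M8. Ordered by mean FPKM, the genes took the same places in both lines: Hspa8 was the highest, followed by Hsp90ab1, Hspe1, Hspd1, Hsp90aa1, Hsph1, Hsf1, Dnajb1, Hspa1b and Hspa1a. In parental cells no neighbours in this order overlapped between replicates, whereas in M8 the values of Hspe1 and Hspd1 did. The step from Hspa8 to Hsp90ab1 was 1.55-fold in parental cells and 1.12-fold in M8.

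Of the 10 genes, 8 had a mean of at least 1 FPKM over the 6 samples and were tested with limma on log2(FPKM + 1), together with all other genes above that level. With an adjusted p below 0.1, the threshold of the study, Hspd1 was higher in M8, Hspa8 and Dnajb1 were lower, and the other 5 did not pass. Over all 10597 genes tested, 37.7% passed, 21.2% as higher and 16.5% as lower in M8, so that 3 of 8 is a share near this background. With values rescaled to TPM, the calls over all genes turned from 2250 higher and 1745 lower to 1658 higher and 2209 lower. For the 8 genes the median log2 fold change was 0.0046, against 0.0069 for all genes tested, and both medians were below 0 with TPM, upper-quartile scaling and quantile normalization. That of the 8 genes was also below 0 without parental replicate 1, parental replicate 2 or M8 replicate 1. The replicates of the lines did not overlap in 4 of the 8 genes, M8 being above in Hspd1 and Hsp90ab1 and below in Hspa8 and Dnajb1. Of all genes tested, 45.2% did not overlap, with M8 above in 24.8% and below in 20.4%.

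**Figure D1:**
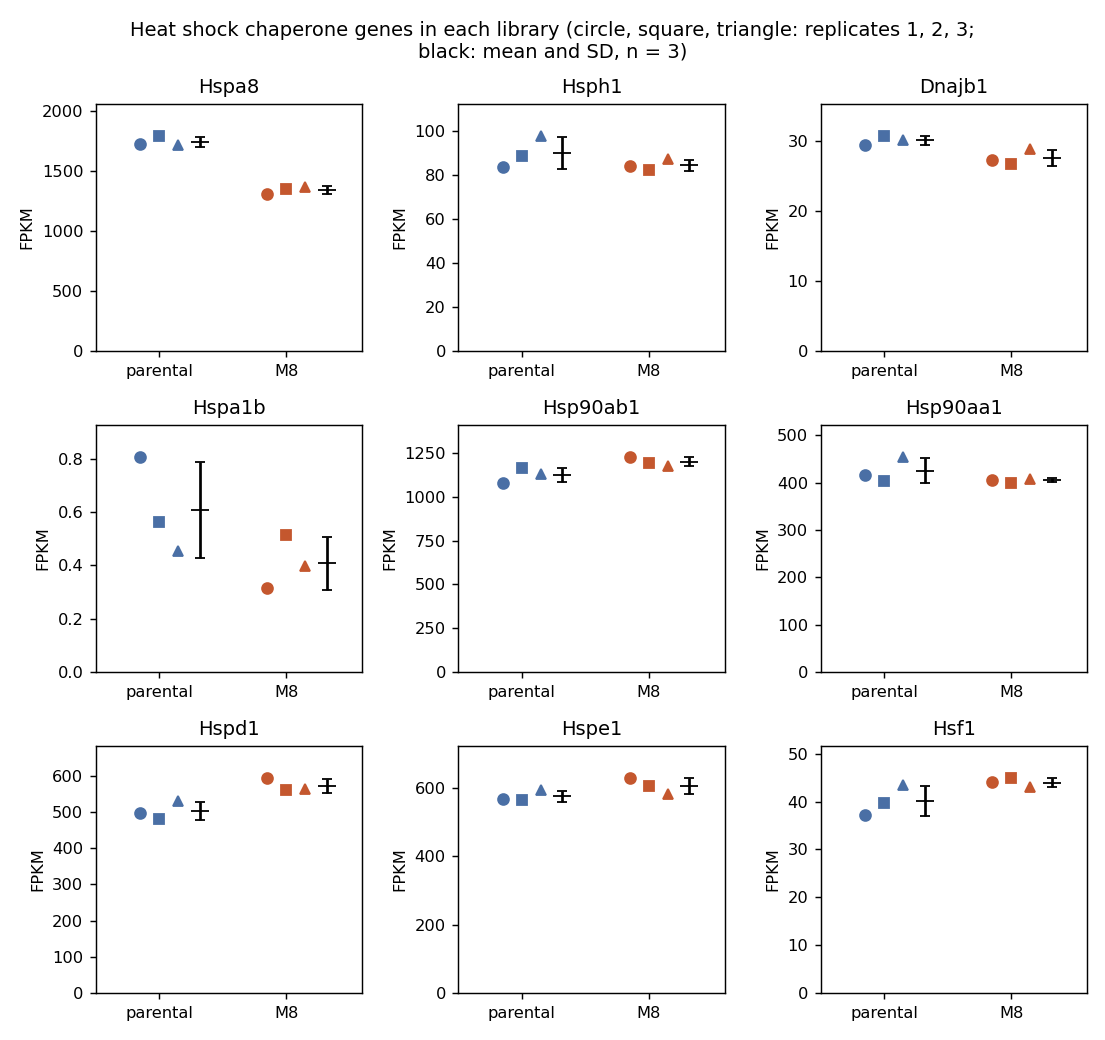
FPKM (vertical axes, from 0) of 9 heat shock chaperone genes in parental and M8 cells, 1 panel a gene. Circles, squares and triangles are replicates 1, 2 and 3, and the black marks are the mean and SD (n = 3). The M8 values of Hspa8 lie well below the parental ones, from 1307 to 1369 against 1714 to 1791 FPKM, and in the other panels the replicates of the lines overlap or lie close to each other.

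Hspa8 encodes HSC70, the constitutive cytosolic HSP70, which also carries proteins to the lysosome in chaperone-mediated autophagy. It lies on chromosome 9 from 40801276 to 40805202 (GRCm38, RefSeq). Its FPKM was 1726, 1791 and 1714 in parental replicates 1 to 3 and 1307, 1353 and 1369 in M8 replicates 1 to 3. All M8 values were below all parental values, and the replicates of each line lay close together, with a coefficient of variation of 2.38% in parental cells and 2.37% in M8. The mean fell from 1743 ± 41.5 to 1343 ± 31.8 FPKM (SD, n = 3 each), a ratio of 0.770. On the log2 scale M8 differed by -0.38 with a standard error of 0.041 (limma adjusted p = 0.000485), and 3.21% of all genes tested had a fold change as low or lower.
This difference passed the threshold in each of the 6 fits that left out 1 library, with log2 fold changes from -0.39 to -0.36, and under each of the 4 other scalings. It did not reach a 1.5-fold change. The exact permutation test on mean FPKM (two-sided) gave p = 0.1, the smallest that 3 samples against 3 allow. Ranked by FPKM among all symbols, Hspa8 was at place 59 to 65 in the parental libraries and at place 75 to 79 in M8. Hsp90ab1 was at place 87 to 91 in parental cells and at 83 to 87 in M8.

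On the log2(FPKM + 1) scale Hspa8 had the largest SD of the 10 genes over the 6 samples, although Hspa1b, at its low level, had the larger coefficient of variation within each line (29.7% and 24.6%). On that scale 5 genes followed Hspa8 most closely: Ptpn3, Tmbim4, Gtf2b, Nicn1 and Hip1r. Their Pearson's r with Hspa8 on log2(FPKM + 1) was 0.998, 0.997, 0.997, 0.995 and 0.995 over the 6 samples. The 6 points fall into 2 lines, and 799 of the other 10596 genes tested had an r above 0.9. Ptpn3, a protein tyrosine phosphatase gene, had 2.76, 2.89 and 2.77 FPKM in the parental replicates and 2.03, 2.05 and 2.13 FPKM in M8. Tmbim4 had 101.9, 103.8 and 100.03 FPKM in the parental replicates and 78.5, 82.8 and 82.5 FPKM in those of M8. As with Hspa8, all M8 values of both genes were below the parental ones. Their choice by r over the same 6 samples favours this.

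Dnajb1 encodes the J-domain protein HSP40 that works with HSC70 and with the inducible HSP70, and lies on chromosome 8 from 83608175 to 83612653. It had 29.5, 30.8 and 30.2 FPKM in the parental replicates and 27.3, 26.7 and 28.9 FPKM in M8. The M8 values were all below the parental ones, but M8 replicate 3 came within 1 FPKM of parental replicate 1. Its mean was 30.1 ± 0.661 FPKM in parental samples and 27.6 ± 1.147 FPKM in M8 (SD, n = 3 each). The log2 fold change, -0.12 with a standard error of 0.046, passed narrowly (limma adjusted p = 0.0778). The fold change stayed between -0.15 and -0.098 when 1 library was left out, but with fewer samples the call was lost without parental replicate 2 (-0.11, limma adjusted p = 0.192), parental replicate 3 (-0.12, 0.126), M8 replicate 1 (-0.11, 0.194) or M8 replicate 2 (-0.098, 0.231). It was also lost in the fit without a mean-variance trend (0.105), the limma adjusted p over all alternatives being 0.0322 to 0.231.

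Hsph1 encodes HSP110, a nucleotide exchange factor of cytosolic HSP70, and lies on chromosome 5 from 149616843 to 149636498. It had 83.6, 88.4 and 97.8 FPKM in the parental replicates and 84.0, 82.1 and 87.1 FPKM in M8. The lines overlapped, and parental replicate 3 stood above the other 5 libraries. Its log2 fold change of -0.088 with a standard error of 0.057 did not pass the threshold (limma adjusted p = 0.277). It came closer to 0 without parental replicate 3, at -0.027, and passed without parental replicate 1, at -0.14 (limma adjusted p = 0.0828). With TPM (0.0842) and with quantile normalization (0.0336) the adjusted p was also below 0.1.

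The stress-inducible HSP70 genes had very low levels. Hspa1b (chromosome 17, 34956429 to 34959238) had 0.807, 0.562 and 0.454 FPKM in the parental replicates and 0.313, 0.513 and 0.396 FPKM in M8. The lines overlapped, and the gene was below the filter. Fitted without the filter, over 16092 genes, it had a log2 fold change of -0.19 and a limma adjusted p of 0.237. Hspa1a (chromosome 17, 34969359 to 34972156) was listed at 0 in 5 libraries and at 0.0713 FPKM in parental replicate 3.
The low values of both copies are uncertain, since many reads could come from either. Of the stretches of 1 read length in the annotated transcript (GENCODE M21), 48.4% in Hspa1a and 49.7% in Hspa1b occur unchanged in another gene's transcript, mostly in each other. How such reads were divided is not given in the sources used here. The neighbouring Hspa1l, which shares 4.64% and 3.26% of their stretches, was between 0.552 and 1.10 FPKM in the 6 libraries. Summed, Hspa1a and Hspa1b were at 0.000307 to 0.000468 of the level of Hspa8 in parental cells and at 0.000240 to 0.000379 in M8, with overlapping values (two-sided exact permutation test on log2 ratios, p = 0.4). The difference in mean log2 ratio, -0.26, was -0.061 without parental replicate 1, -0.10 without M8 replicate 1 and -0.43 without M8 replicate 2.

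Copies are also known for other genes of the group. Of the stretches of Hspa8, 56.4% occur in at least 1 of 7 processed pseudogenes and 52.4% in Gm15459, and of those of Hsp90aa1, 40.4% occur in 3. The shares were 23.2% for Hspd1 and 20.3% for Hspe1, and 0 for Hsf1, Hsph1, Dnajb1 and Hsp90ab1. The pseudogenes of Hspa8, Hsp90aa1 and Hspd1 are not among the deposited symbols. The part of this sequence sharing in the differences between the lines was not tested.

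Neither HSP90 gene passed the test. Hsp90ab1, the constitutive HSP90 beta, lies on chromosome 17 from 45567778 to 45573261. Its FPKM was 1081, 1163 and 1128 in parental cells and 1228, 1196 and 1179 in M8. All M8 values lay above the parental ones, but the gap between parental replicate 2 and M8 replicate 3 was smaller than the SD of either line (41.6 and 25.1 FPKM, n = 3 each). A log2 fold change of 0.10 with a standard error of 0.043 did not pass (limma adjusted p = 0.123), except without parental replicate 2 (0.12, limma adjusted p = 0.0952). It was 0.067 without parental replicate 1 and 0.058 with TPM.
Hsp90aa1, the stress-inducible HSP90 alpha, lies on chromosome 12 from 110691036 to 110696395. It had 415.5, 404.0 and 454.4 FPKM in the parental replicates and 406.3, 399.9 and 408.1 FPKM in M8. Parental replicate 3 was again the highest, and the other 5 libraries lay between 399.9 and 415.5 FPKM. The log2 fold change was -0.067 with a standard error of 0.048 (limma adjusted p = 0.321), and -0.018 without parental replicate 3. It passed with TPM, at -0.10 (limma adjusted p = 0.0853), and with quantile normalization, at -0.20 (limma adjusted p = 0.0122).

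Because a ratio of 2 genes in the same library does not depend on any factor that scales the whole library, the pairs were also compared as ratios. Hsp90aa1 was at 0.385, 0.347 and 0.403 of the level of Hsp90ab1 in parental cells and at 0.331, 0.334 and 0.346 in M8. The M8 ratios were all lower, parental replicate 2 lying only just above M8 replicate 3, and the mean log2 ratio differed by -0.16. An exact two-sided permutation test gave p = 0.1, or 0.133 adjusted over the 4 ratios tested. This difference was -0.12 without parental replicate 3 and -0.22 without parental replicate 2.

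**Figure D2:**
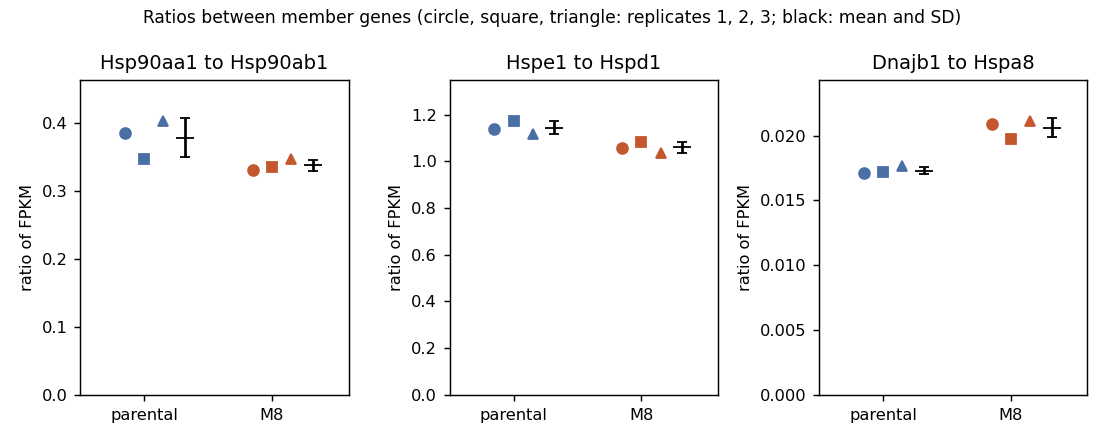
Ratios of FPKM (vertical axes, from 0) between 3 pairs of heat shock chaperone genes in each library, with replicates 1, 2 and 3 as circles, squares and triangles and the mean and SD (n = 3) in black. The ratios of Hsp90aa1 to Hsp90ab1 and of Hspe1 to Hspd1 are lower in each M8 library than in each parental one, and that of Dnajb1 to Hspa8 is higher.

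Of the mitochondrial chaperonin genes, Hspd1 was higher in M8 and Hspe1 did not pass the test. Hspd1 encodes HSP60 (chromosome 1, 55077833 to 55088243) and Hspe1 its co-chaperonin HSP10 (chromosome 1, 55088148 to 55091317). The annotated genes overlap by 96 bases on opposite strands. Hspd1 had 497.9, 482.1 and 531.3 FPKM in the parental replicates and 595.1, 560.0 and 564.1 FPKM in M8. All M8 values were above all parental values. The mean rose from 504 ± 25.1 to 573 ± 19.2 FPKM (SD, n = 3 each). The rise was 0.19 on the log2 scale with a standard error of 0.047 (limma adjusted p = 0.0176). The call held in all 6 fits without 1 library (0.16 to 0.23) and was lost with quantile normalization, at 0.10 (limma adjusted p = 0.119).

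Hspe1, which shares the element of 4 units with Hspd1, had 567.0, 565.5 and 593.4 FPKM in the parental replicates and 630.1, 606.8 and 583.6 FPKM in M8. M8 replicate 3 lay below parental replicate 3, so the lines overlapped. Its log2 fold change of 0.077 with a standard error of 0.043 did not pass (limma adjusted p = 0.209), and it was 0.039 with TPM, 0.049 with upper-quartile scaling, 0.049 without M8 replicate 1 and -0.026 with quantile normalization. The ratio of Hspe1 to Hspd1 was 1.14, 1.17 and 1.12 in parental cells and 1.06, 1.08 and 1.03 in M8. The M8 ratios were all lower, and the mean log2 ratio differed by -0.11 (exact two-sided permutation test, p = 0.1, or 0.133 adjusted over the 4 ratios), with -0.13 to -0.091 when 1 library was left out. The ratio of Dnajb1 to Hspa8 was 0.0171, 0.0172 and 0.0176 in parental cells and 0.0209, 0.0198 and 0.0211 in M8. All M8 ratios were higher, by 0.25 in mean log2 ratio, with the same permutation p and adjusted value.

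Hsf1 (chromosome 15, 76477362 to 76501155) had 37.2, 39.6 and 43.4 FPKM in the parental replicates and 44.0, 45.0 and 42.9 FPKM in M8. Parental replicate 3 lay within the M8 range. The log2 fold change of 0.13 with a standard error of 0.057 missed the threshold (limma adjusted p = 0.109). Without parental replicate 3 it was 0.19 and passed (limma adjusted p = 0.0229), and with a filter at a mean of 5 FPKM it passed as well (limma adjusted p = 0.0996). Without parental replicate 1 it was 0.082 and with quantile normalization 0.066, and neither passed (limma adjusted p = 0.275 and 0.382).
In 5 of the 8 genes tested (Hsf1, Hsph1, Hsp90aa1, Hspd1 and Hspe1), parental replicate 3 was the highest parental library, which was the case for 36.4% of all genes tested. Without this library the log2 fold change of Hspd1 was 0.23 and that of Hspe1 0.10, and the latter still did not pass (limma adjusted p = 0.126).

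**Figure D3:**
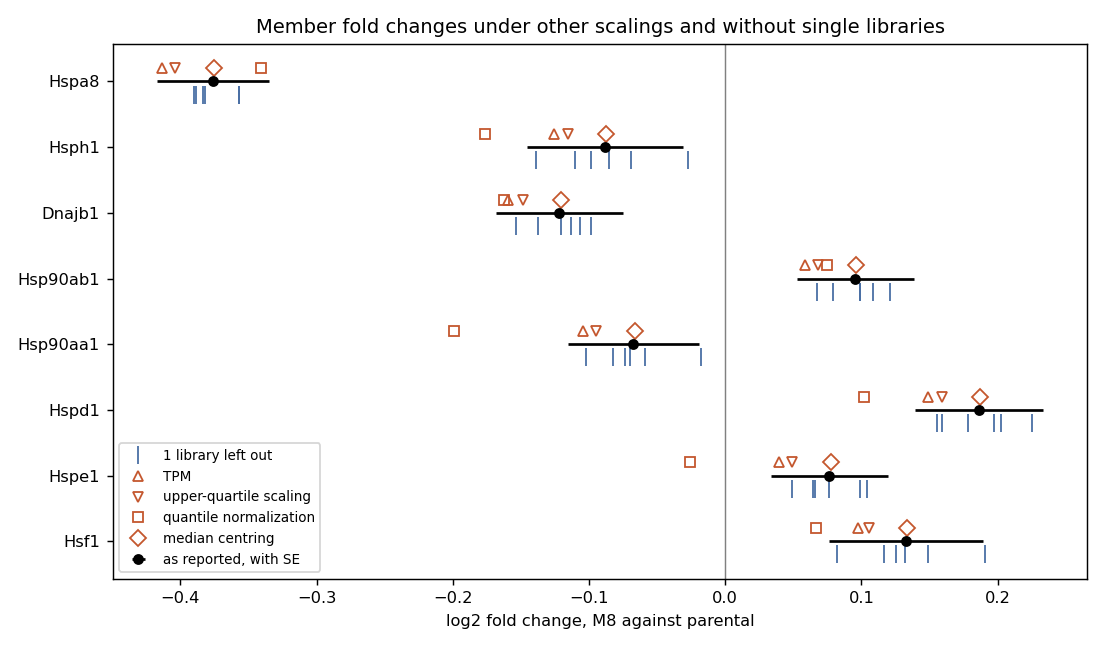
Log2 fold change of M8 against parental (horizontal axis) for the 8 genes tested. Black points with bars are the values reported with their standard error, red symbols other scalings and blue ticks the 6 fits without 1 library. Hspa8 stays between -0.41 and -0.34, Hspd1 above 0.10, and Hspe1 falls below 0 with quantile normalization.

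To place these genes, 76 other genes of the chaperone network were taken from 7 lists by function, and 65 of them passed the filter. Of the 65, 21 were higher and 7 lower in M8, or 32.3% and 10.8%, beside 21.2% and 16.5% of all genes tested. Their median log2 fold change was 0.064, and 0.029 with TPM, 0.038 with upper-quartile scaling, 0.0094 with quantile normalization and 0.029 without parental replicate 1. The split depended on the scaling. Under TPM 16 were higher and 12 lower (24.6% and 18.5%, beside 15.6% and 20.8% of all genes). Under quantile normalization 11 were higher and 12 lower (16.9% and 18.5%), which is near the 17.2% and 16.8% of all genes (1820 and 1775). Without M8 replicate 1 there were 12 higher genes and without M8 replicate 2 there were 13, while the higher genes of the whole table went from 2250 to 1609 and 1715.

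Hspa9, the mitochondrial HSP70 (mortalin), rose from 862 ± 38.1 to 1025 ± 34.7 FPKM (SD, n = 3 each), by 0.25 on the log2 scale (limma adjusted p = 0.00469). Hspa9 belonged to the list of other HSP70 family genes, not to the 12 mitochondrial chaperones and proteases, which also leave out Hspd1 and Hspe1. All 12 were tested, and 5 were higher (41.7%, beside 21.2% of all genes tested). In the same list 1 was lower (8.33%, beside 16.5%) and 6 did not pass, with a median of 0.082. With TPM, upper-quartile scaling and quantile normalization, 4 were higher and 2 lower each time (33.3% and 16.7%). Beside these stood 15.6% and 20.8% of all genes with TPM, 17.4% and 20.3% with upper-quartile scaling, and 17.2% and 16.8% with quantile normalization. With median centring 5 were higher and 1 was lower (41.7% and 8.33%, beside 21.4% and 16.4%). The median of the list was above 0 under all 4 scalings. Without M8 replicate 1 or without M8 replicate 2, 3 were higher, and without M8 replicate 3, 2 were lower. Htra2, a protease of the intermembrane space (0.25), Trap1, the mitochondrial HSP90 (0.23), and Lonp1, a matrix protease (0.21), rose most of the 12. With quantile normalization Trap1 was at 0.15 (limma adjusted p = 0.0386) and Lonp1 at 0.11 (limma adjusted p = 0.0857). Hscb, the J-domain protein of iron-sulfur cluster assembly, was the lower gene, at -0.20 (limma adjusted p = 0.0126); it lies outside the rule for named genes and was picked after its value was seen.

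Of the 8 genes of TRiC, the cytosolic chaperonin that folds actin and tubulin, 5 were higher (62.5%, beside 21.2% of all genes tested) and the other 3 did not pass. The median log2 fold change was 0.13, and 0.030 with quantile normalization, under which 2 were higher and 1 was lower (25.0% and 12.5%, beside 17.2% and 16.8% of all genes). With TPM, 4 were higher and 1 was lower (50.0% and 12.5%, beside 15.6% and 20.8%). Without parental replicate 2 or M8 replicate 2 there were 3 higher genes. Cct3 rose most, from 199 ± 4.05 to 243 ± 5.74 FPKM (SD, n = 3 each; log2 fold change 0.28, limma adjusted p = 0.00116), followed by Cct5 (0.19) and Cct8 (0.17). With quantile normalization Cct5 was at 0.081 (limma adjusted p = 0.0927), and Cct8, at 0.058, no longer passed (limma adjusted p = 0.278).

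Among the 23 co-chaperones of HSP70 and HSP90, 4 were higher, 3 were lower and 16 did not pass. These are 17.4% and 13.04%, beside 21.2% and 16.5% of all genes tested. With quantile normalization 2 were higher and 4 lower (8.70% and 17.4%, beside 17.2% and 16.8% of all genes). Without M8 replicate 1 there were 2 higher and 2 lower, and without parental replicate 1 there were 5 lower. Without parental replicate 2 or M8 replicate 2 there were 2 lower. Ppp5c, a protein phosphatase that docks on HSP90, rose by 0.24 on the log2 scale (limma adjusted p = 0.00545). Ahsa2, a paralog of the HSP90 ATPase activator Ahsa1, had -0.23, and Cdc37l1, a paralog of the kinase-specific co-chaperone Cdc37, had -0.21. Of 11 J-domain protein genes tested, 4 were higher and 1 lower (36.4% and 9.09%). With TPM 3 were higher and 3 lower (27.3% each, beside 15.6% and 20.8% of all genes). With upper-quartile scaling 3 and 2 were (27.3% and 18.2%, beside 17.4% and 20.3%), and with quantile normalization 2 and 3 (18.2% and 27.3%, beside 17.2% and 16.8%). Without parental replicate 1, M8 replicate 1 or M8 replicate 2 there were 2 higher. Dnajb4, the closest relative of Dnajb1 in the list, fell from 18.5 ± 0.124 to 14.0 ± 0.116 FPKM (SD, n = 3 each; log2 fold change -0.38, limma adjusted p = 0.000644). Dnajc2, a ribosome-associated J-domain protein (0.25), and Dnajc7 (0.18) were higher.

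Of the other HSP70 family genes, 5 of 8 were tested. Besides Hspa9, Hspa4, a relative of Hsph1, was called higher at 0.097 (limma adjusted p = 0.0981). That call was lost in each of the 6 fits without 1 library, at values of 0.071 to 0.12, and with TPM (0.061), upper-quartile scaling (0.070) and quantile normalization (0.017). Hspa2 was lower at -0.37 (limma adjusted p = 0.0396), with means of only 1.72 FPKM (parental) and 1.10 FPKM (M8), and did not pass without parental replicate 2 (0.131) or M8 replicate 3 (0.118). With a pseudocount of 0.1 in place of 1 its log2 fold change was -0.61 (limma adjusted p = 0.0437), and the ratio of its mean FPKM was 0.640. Of the heat shock factor list, Hsf2, which can form complexes with HSF1, fell from 12.6 ± 1.002 to 9.60 ± 0.498 FPKM (SD, n = 3 each; log2 fold change -0.36, limma adjusted p = 0.00499). Of 8 small heat shock protein genes, 3 were tested, and Hspb6 was called higher at 0.18 (limma adjusted p = 0.0695), although its replicates overlapped. That call was lost in 4 of the 6 fits without 1 library, namely those without parental replicate 1, parental replicate 3, M8 replicate 1 or M8 replicate 2. It was also lost with TPM (limma adjusted p = 0.113), upper-quartile scaling (0.101) and quantile normalization (0.106), without the filter (0.144) and without the mean-variance trend (0.1001). Hspb1, which encodes HSP27 and is heat-inducible in many cells, was below the filter with means of 0.129 ± 0.0778 FPKM (parental) and 0.116 ± 0.104 FPKM (M8; SD, n = 3 each); it was picked after its value was seen. Promoter windows were found for 61 of the 76 genes, and 2 of them, Chordc1 and Dnajb6, had the element of 3 units (3.28%, beside 0.662% of all 27025 symbols). The form of 2 units was present in 18 of the 61 (29.5%, beside 17.0% of all symbols).

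**Figure D4:**
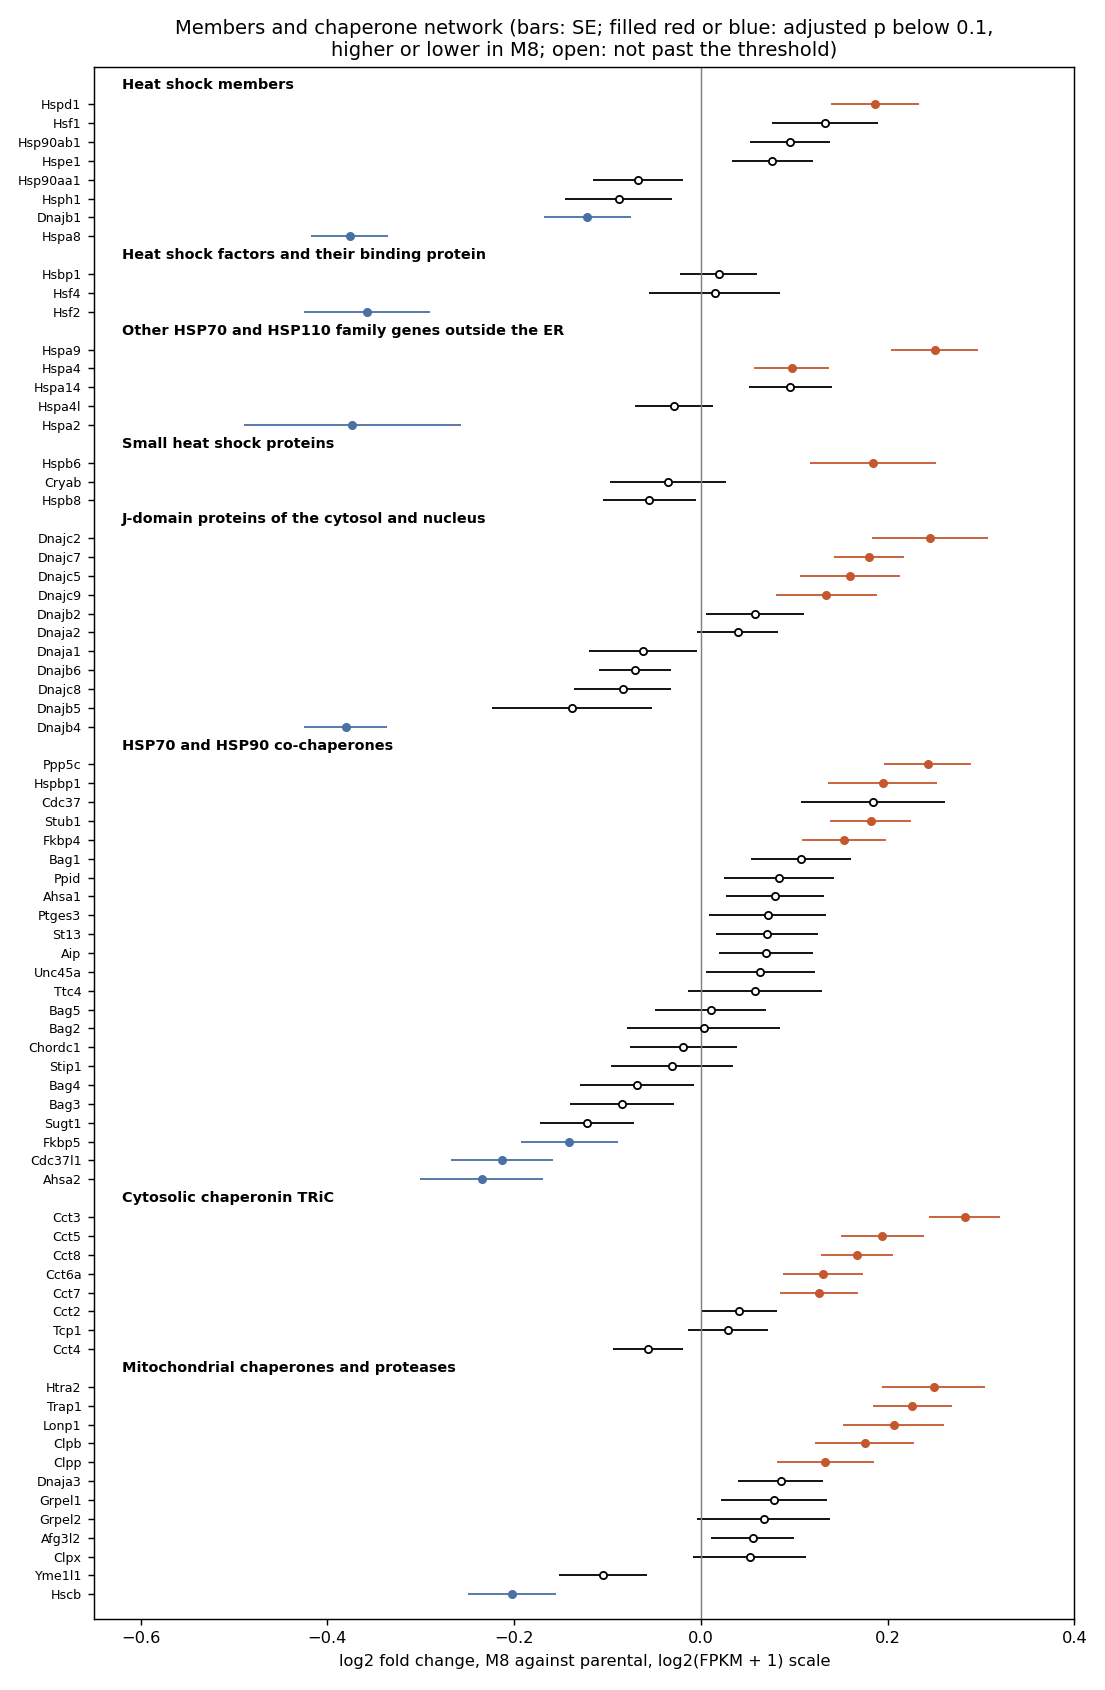
Log2 fold change of M8 against parental on the log2(FPKM + 1) scale (horizontal axis) for the 8 heat shock genes and the 65 network genes tested, grouped by list, with standard errors as bars. Filled red and blue points passed an adjusted p of 0.1 as higher or lower in M8, and open points did not. Hspa8, Dnajb4, Hspa2 and Hsf2 lie furthest to the left, and Cct3 furthest to the right.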

How the data were processed

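mRNA was measured in 3 parental and 3 M8 samples, grouped by their titles. Per the labels and the study's methods, the authors made stranded libraries, sequenced them as single reads and used TopHat (mm10) and Cufflinks. The authors deposited FPKM, 1 value for each gene symbol. The submitters' processing notes name TopHat2 2.1.1, Bowtie2 2.2.8 and Cuffdiff 2.2.1. The gene annotation is not given in the sources used here.

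Values were analysed as log2(FPKM + 1) with limma 3.58.1 in R 4.3.3 (eBayes with a mean-variance trend, no covariates) for the 10597 genes with a mean of at least 1 FPKM, with Benjamini-Hochberg adjustment over all of them. FPKM give no counts, so counting error is unknown, and the pseudocount shrinks fold changes on the log2(FPKM + 1) scale where expression is low. The ratio of Hspa1a to Hspa1b was planned and dropped, since Hspa1a was listed at 0 in 5 of 6 libraries. Python 3.11.15 was used for sequences and figures. Named genes are the 10 members, up to 3 genes with the largest change among those past the threshold in each list, and the 5 genes most like the member that varied most. The members and lists were chosen with earlier results of these data known. Alternatives were a pseudocount of 0.1, no filter, a filter at a mean of 5 FPKM, 4 scalings (TPM, upper quartile, quantile, median centring), a threshold of 0.05, a 1.5-fold change as a further criterion, eBayes with the trend turned off, a replicate block, and each library left out in turn.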

Additional observations from a re-analysis of the deposited data

How the results depend on the processing

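The count of heat shock genes called higher (1) became 2 with a mean of at least 5 FPKM and 0 with quantile normalization or a fold change of at least 1.5, and ranged from 1 to 2 with 1 library left out (2 without parental replicate 2 or 3). The count called lower (2) became 4 with TPM or quantile normalization, 1 with eBayes without a trend or an adjusted p below 0.05, and 0 at 1.5-fold, and ranged from 1 to 3 with 1 library left out (3 without parental replicate 1). Of the network genes, 11 were higher and 12 lower with quantile normalization, 12 were lower with TPM, and 0 passed in either direction with a fold change of at least 1.5 on the log2(FPKM + 1) scale, with 12 to 20 higher when 1 library was left out. Over all genes, 42 rose and 74 fell by 1.5-fold on that scale, and the lower genes numbered 1157 to 1672 with 1 library left out, the lowest without M8 replicate 1. Hspe1 turned to -0.026 with quantile normalization, and the log2 ratio of the Hspa1 copies to Hspa8 turned from -0.26 to 0.16 with 1 added to each FPKM, as the added value exceeds the level of the copies. The cause of the other changes was not tested.

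The replicate numbers are shared between the lines, but deviations of same-numbered samples correlated at 0.10, -0.11 and -0.033, and not every sample correlated best with its own number. With the replicate block, 1 heat shock gene was higher and 1 lower, and the call of Dnajb1 was lost (limma adjusted p = 0.104). The relative depth of the M8 libraries was below that of the parental ones, and its part in the low values of Hspa1a and Hspa1b was not tested.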
